A study of Mus musculus with 8 samples.

Results

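The regions described here are 1000 places in the embryonic mouse cortex with high enrichment of methylated lysine 4 of histone H3 in all 4 libraries. They were chosen by the fold enrichment that the authors' peak caller gave each peak. Peaks on chromosomes 1 to 19 were merged within each of the 4 lists, the 4 sets were intersected, and 56725 intervals of at least 200 bp and under 10 kb were left, called shared regions below. Each shared region took the largest fold enrichment of the peaks over it in each list, its score was the smallest of the 4 values, and the 1000 highest scores were kept, 1000 of 56725 regions or 1.76%. These 1000 are the members. All fold enrichments below are therefore values that chose the members and are given as a description, with no test.

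Chromatin came from whole cortex lysate of mouse embryos at E15.5. The control group (WT, 2 ChIP libraries) had the genotype Prdm16 flox/flox, and the mutant group (cKO, 2 ChIP libraries) had Emx1Ires-Cre; Prdm16flox/flox, so both groups carry floxed Prdm16 alleles and the Cre separates them. Emx1 drives Cre in the progenitors of the dorsal telencephalon, and cells of other origin in a whole cortex lysate (interneurons, vessels, microglia) do not come from these progenitors. The antibody was anti-H3K4me on native chromatin cut with micrococcal nuclease, and the labels do not say whether replicates are separate embryos, so the spread between them may be technical.

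Methylation of this lysine comes in 3 forms. Monomethylation, which the catalogue entry of this antibody names, is the common mark of enhancers, active or primed, and of the shoulders of promoters, whereas trimethylation sits on the starts of active genes, most of all where the start lies in a CpG island. In the developing cortex enhancers of this kind hold much of the regulation that separates radial glia, intermediate progenitors and neurons. In a lysate of many cells, more cells with the mark and more mark per cell cannot be told apart.

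The lists held 65740 to 81447 peaks on these chromosomes and covered 113 to 165 Mb, with both cKO lists above both WT lists in number and length. The read depth is unknown, since the lists hold no counts. The tissue label was compared with marker genes, counting the shared region bases in each gene span plus 10 kb on either side. All 10 markers of cerebral cortex had a shared region, with a median of 11540 bases (range 2238 to 33230), and all 7 of ventral telencephalon and interneurons, with a median of 4841 (range 2394 to 7516). The medians were 1657 for 5 endothelial markers (range 0 to 9543, Tie1 without any), 1156 for 5 meningeal ones (339 to 5536), 703 for 5 microglial ones (0 to 2354, Cx3cr1 without any) and 269 for 3 measured erythroid ones (0 to 3371, Hbb-bt without any).

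A few members lay over the start of a coding gene, and their promoter sequences show what kind of start it was. RefSeq promoter windows (GRCm38.p6, the assembly of mm10) run from 250 bases before to 50 bases after a start, and 31 of 20063 windows, from 29 genes, lay wholly inside a member, against 3726 inside any shared region. The windows in members held few CpG dinucleotides. The first 3 sequences are those of highest score with under 10 CpG, with gene models named Gm left out, and the last 2 are those with the most CpG. Each is printed 5′ to 3′ on the strand of its gene, and capitals mark every CpG.

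Nwd1 (chr8:72646461-72646760, plus strand): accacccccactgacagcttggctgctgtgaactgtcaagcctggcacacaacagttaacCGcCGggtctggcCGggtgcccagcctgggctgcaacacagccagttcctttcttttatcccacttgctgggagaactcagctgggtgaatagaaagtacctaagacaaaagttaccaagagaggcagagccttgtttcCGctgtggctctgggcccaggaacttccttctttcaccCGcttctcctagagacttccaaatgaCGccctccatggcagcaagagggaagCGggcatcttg

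Adgrg1 (chr8:94984149-94984448, plus strand): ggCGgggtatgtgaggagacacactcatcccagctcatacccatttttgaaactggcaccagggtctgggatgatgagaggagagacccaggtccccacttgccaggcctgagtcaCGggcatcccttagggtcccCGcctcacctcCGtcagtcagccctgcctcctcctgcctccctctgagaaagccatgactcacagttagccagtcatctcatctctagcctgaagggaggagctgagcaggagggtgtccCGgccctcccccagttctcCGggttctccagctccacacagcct

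Evl (chr12:108605516-108605815, plus strand): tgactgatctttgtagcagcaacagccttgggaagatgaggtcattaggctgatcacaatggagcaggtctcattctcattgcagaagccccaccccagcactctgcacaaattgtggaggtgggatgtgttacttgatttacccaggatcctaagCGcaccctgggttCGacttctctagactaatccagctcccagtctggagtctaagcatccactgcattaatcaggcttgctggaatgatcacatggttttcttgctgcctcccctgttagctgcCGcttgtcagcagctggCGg

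Hes5 (chr4:154960673-154960972, plus strand): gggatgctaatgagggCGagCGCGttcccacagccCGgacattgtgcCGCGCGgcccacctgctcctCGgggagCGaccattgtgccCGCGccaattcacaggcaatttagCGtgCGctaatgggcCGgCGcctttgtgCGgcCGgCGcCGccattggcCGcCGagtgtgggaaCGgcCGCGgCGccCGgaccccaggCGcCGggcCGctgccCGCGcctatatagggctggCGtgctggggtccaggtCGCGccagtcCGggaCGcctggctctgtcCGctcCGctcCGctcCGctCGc

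Cacnb1 (chr11:98022578-98022877, minus strand): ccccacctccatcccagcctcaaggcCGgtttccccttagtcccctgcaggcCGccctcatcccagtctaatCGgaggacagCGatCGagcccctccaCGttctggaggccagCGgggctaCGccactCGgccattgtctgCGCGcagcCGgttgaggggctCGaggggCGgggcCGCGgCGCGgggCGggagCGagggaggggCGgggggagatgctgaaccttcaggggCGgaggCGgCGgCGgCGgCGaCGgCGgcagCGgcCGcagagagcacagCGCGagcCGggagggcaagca

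The windows of Nwd1, Adgrg1 and Evl held 7, 6 and 4 CpG, and those of Hes5 and Cacnb1 held 41 and 34. Adgrg1 encodes an adhesion G protein-coupled receptor of radial glia, Evl an actin regulator of the Ena/VASP family, Hes5 a bHLH repressor that answers to Notch, and Cacnb1 a beta subunit of calcium channels. Over all 31 windows in members the median was 7 CpG per window, against 19 in the 3726 windows inside shared regions and 14 over all 20063. The GC content differed less: 59.7% in members, 61.0% in shared regions and 57.0% over all promoters. At least 10 CpG were held by 35.5% of windows in members, 80.4% of those in shared regions and 57.9% of all. Read the other way, 20 of 731 windows in shared regions with under 10 CpG lay in a member (2.74%), compared with 11 of 2995 windows with 10 or more (0.367%), although the shared regions over both kinds were of like length (medians 2306 and 2205 bp). Windows are not replicates, and no test was made of this or of the other shares of regions below.

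**Figure D1:**
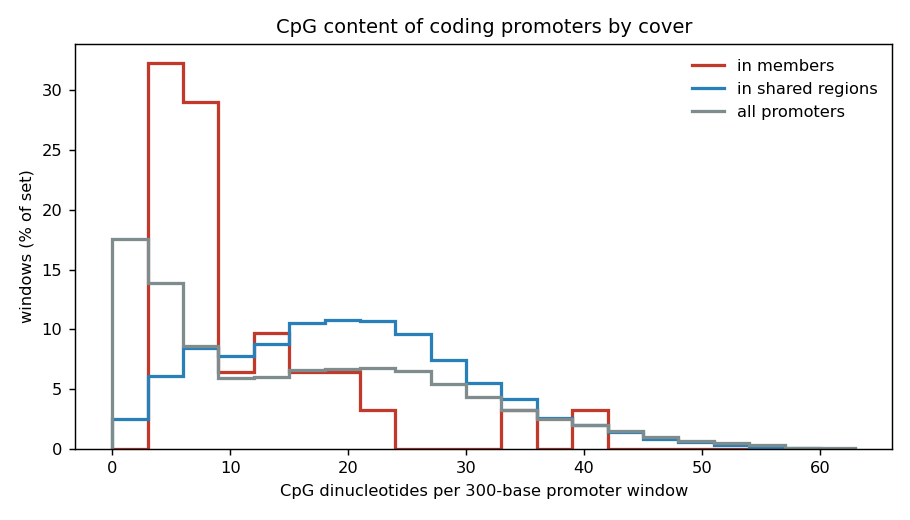
CpG dinucleotides per 300-base RefSeq promoter window (x axis) as a share of windows (y axis) for the 31 windows inside members, the 3726 inside shared regions and all 20063. The windows in members lie mostly under 10 CpG (20 of 31), where 731 of the 3726 in shared regions lie.

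Fixed motifs were searched on both strands of these windows. CAGCTG, an E-box bound by proneural bHLH factors, was in 10 of 31 windows in members (32.3%), 17.2% of those in shared regions and 15.6% of all. TTGGCA, which overlaps part of an NFI site, was in 8 of 31 (25.8%), 11.9% and 13.1%. The GC box CCGCCC was in 10 of 31 (32.3%), 62.2% and 47.0%. The other shares are given for members, shared regions and all promoters in turn. CAGATG, another E-box, was in 9.68%, 13.3% and 14.6%, and CACGTG, one more form of it, in 3.23%, 9.07% and 7.88%. Of the SOX-type words, ACAAAG was in 19.4%, 14.2% and 16.6%, and ACAATG in 12.9%, 6.41% and 10.4%. The homeodomain word TAATTA was in 3.23%, 2.68% and 4.48%, and the AP-1 word TGACTCA in 6.45%, 4.11% and 4.70%. TGGGAA, part of an RBPJ site, was in 29.0%, 25.2% and 24.1%. The octamer ATGCAAAT was in 0 of 31, 1.61% and 1.68%, and the full palindromic NFI site, which holds TTGGC, in 0 of 31, 0.0537% and 0.0349%. Both windows of Rgs8 lay in 1 member and held CAGCTG and TTGGCA. A match describes the letters only.

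Members also held 4 miRNA hairpins of 919 on these chromosomes, where 121 lay in a shared region. The one in the highest-scoring member was Mir148b, in Copz1, whose region (chromosome 15, 103285046 to 103286556, rank 81) had fold enrichments of 6.74 and 6.65 in WT replicates 1 and 2 and 6.72 and 6.85 in cKO replicates 1 and 2. The others were Mir7032 in Hip1r, Mir6976 in Srf and Mir6991 in 2700081O15Rik. The mature arms of Mir148b are shown because their seeds (bases 2 to 8, in capitals) are what a target search would use.

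mmu-miR-148b-5p: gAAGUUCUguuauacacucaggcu

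mmu-miR-148b-3p: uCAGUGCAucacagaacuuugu

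The score of the members ran from 5.58 to 7.88, with a median of 5.87, where the median over all shared regions was 3.61. Their median fold enrichment was 7.17 and 5.96 in WT replicates 1 and 2 and 6.94 and 6.71 in cKO replicates 1 and 2, compared with 4.45, 3.83, 4.40 and 4.26 over all shared regions. WT replicate 2 had the narrowest range of values (highest 8.30, against 11.6, 10.7 and 11.0 in the other lists), and it gave the smallest of the 4 values in 730 of the 1000 members. cKO replicate 2 gave it in 134, cKO replicate 1 in 78 and WT replicate 1 in 58. The choice of members thus rested on WT replicate 2 more than on any other list. With that list left out, 526 of the 1000 regions chosen overlapped a member, and with one of the other lists left out between 870 and 934 did.

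**Figure D2:**
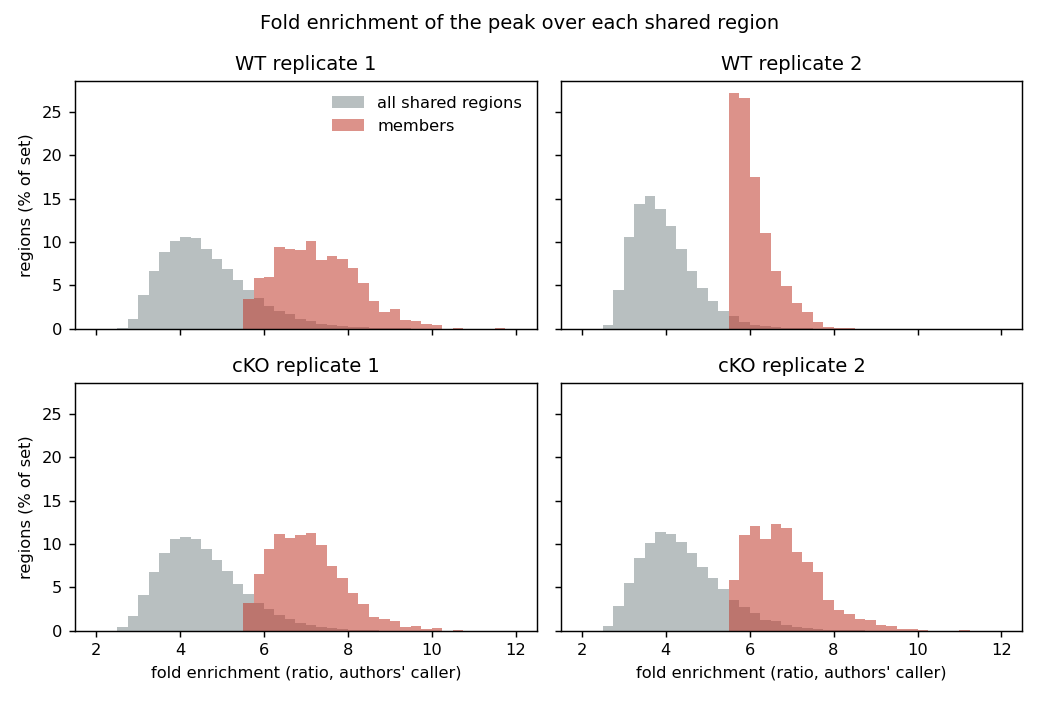
Fold enrichment by the authors' caller (x axis, ratio) of the peak over each region in each library, as a share of the set (y axis), for the 1000 members and all 56725 shared regions. Members start at 5.58 in every library by the rule, and those of WT replicate 2 are packed between 5.58 and 8.30.

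Few members were at the top of every list. Of the 1000, 144 were among the 1000 highest folds of all 4 lists, 207 of 3 lists, 249 of 2, 249 of 1 and 151 of none. The largest gaps between the best and the worst rank within a list belonged to regions in Pxmp4, Arid3b, Foxn3, Chst11 and Dclk1. The region in Pxmp4 ranked 83 in cKO replicate 2 and 9439 in WT replicate 1, with folds of 8.30 and 5.59. All 5 had their worst rank in WT replicate 1, between 9248 and 9492 of 56725.

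The threshold fell in a dense part of the ranking. The last 3 regions inside it, in Mpped2, 187191 bp from Cd83 and 13296 bp from Rhcg, had scores of 5.57676, 5.5767 and 5.57668. The first 3 outside it, 32295 bp from Kif26a, 53666 bp from Lhx2 and 5035 bp from Acsf3, had 5.57617, 5.57569 and 5.57556.

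The 12 members of highest score were spread over 10 chromosomes. The first lay 8787 bp outside Ttc7b, a gene of a phosphatidylinositol 4-kinase complex (chromosome 12, 100289106 to 100291983), with folds of 8.89 and 8.30 in WT and 7.88 and 9.53 in cKO. The second stood far from any coding gene, 204 kb from Cryba4, a lens crystallin (chromosome 5, 112039241 to 112042927), with 8.48 and 7.84 in WT and 7.79 and 8.72 in cKO. The values of WT and cKO overlapped at both.

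The third lay within Ago2, the argonaute that cuts RNA targets (chromosome 15, 73135498 to 73138282), with 9.22 and 8.13 in WT and 8.17 and 7.73 in cKO. A region 21.4 kb from Foxo6, a forkhead factor of the brain, was 6156 bp long (chromosome 4, 120239471 to 120245626) and had 8.91 and 7.71 in WT and 8.48 and 8.61 in cKO. A region 269 kb from Nphp4, a gene of the primary cilium (chromosome 4, 152832057 to 152835257), had 8.14 and 7.70 in WT and 8.02 and 10.2 in cKO. At each of these 3 the lists of the genotypes overlapped. The others lay within Cyb561d1 (score 7.70), Gse1 (7.68), Slc6a6, the taurine transporter (7.45), and Dscaml1 (7.41), and 3476 bp from Rbm5, a splicing factor (7.48), 57.9 kb from Cd82, a tetraspanin (7.42), and 20.7 kb from Ctdsp2, a phosphatase (7.38).

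The highest folds of 2 lists belonged to the same member. In Dscaml1, a cell adhesion molecule of the immunoglobulin superfamily, the region from 45675529 to 45679557 on chromosome 9 had 11.6 in WT replicate 1 and 11.0 in cKO replicate 2, each the highest of its list, and 7.41 in WT replicate 2 and 8.77 in cKO replicate 1. Another member of the same gene, 45662071 to 45666583, had 9.42 and 7.28 in WT and 9.56 and 8.98 in cKO. The gene held 4 members among 31 shared regions.

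Some genes held several members. Of 20665 coding loci (gene span plus 10 kb), 715 held a member, which is 3.46% (the background of every count of loci below), and 137 held 2 or more. The locus with the most was Gse1, which encodes a protein of corepressor complexes with histone deacetylases and the demethylase LSD1. It held 14 members among 36 shared regions (38.9%, where 1.76% of all shared regions are members) in a gene of 353 kb (chromosome 8, 120228501 to 120581383). Some of them lay under the same wide peak, and the 14 corresponded to 13 and 11 separate peaks in WT and to 11 in each cKO list. The strongest, 120436404 to 120443074, had 9.91 and 7.68 in WT and 8.13 and 8.85 in cKO. The member at its far side, 120483687 to 120487217, had 8.46 and 6.57 in WT and 9.19 and 7.48 in cKO.

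**Figure D3:**
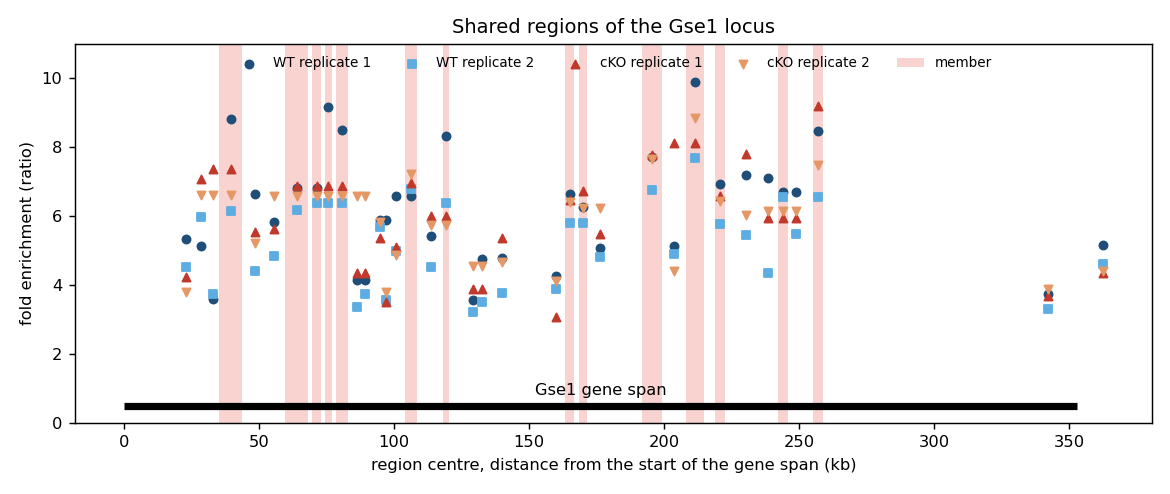
Fold enrichment (y axis, ratio) in each of the 4 libraries over the 36 shared regions of the Gse1 locus, by distance of the region's centre from the start of the gene span in kb (x axis). Pink bands mark the 14 members, which span much of the gene between its start and 260 kb, and points of equal height under neighbouring bands belong to 1 wide peak.

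Auts2, a component of a Polycomb complex linked to neurodevelopmental disorders, followed with 10 members, each under a separate peak in every list. It is 1105888 bp long and held 127 shared regions, so 7.87% of them were members, and per 100 kb of locus it held 0.888 members against 3.76 in Gse1. The best region of Auts2 (chromosome 5, 131599916 to 131603569) had 7.80 and 6.80 in WT and 6.21 and 7.03 in cKO.

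Loci with 4 members included the following genes. Arid1b, a subunit of the BAF remodelling complex, held 4 of 41 shared regions, with 8.43 and 7.08 in WT and 8.29 and 8.57 in cKO at the best (chromosome 17, 5284098 to 5288919). Zfp423, a zinc-finger transcription factor, held 4 of 33, with 8.25 and 6.37 in WT and 7.68 and 8.32 in cKO at the best (chromosome 8, 87830373 to 87838279). At both of these regions the value of WT replicate 2 was the lowest of the 4. Med27, a Mediator subunit, held 4 of 24, and Macrod1 4 of 12. Flrt1, an adhesion protein gene, lies within Macrod1, and the 3 members of the Flrt1 locus are also counted there. The one from 7087562 to 7093543 on chromosome 19 overlapped Flrt1, and the others lay beside Flrt1 in Macrod1. Genes with a member were longer than coding genes at large, with a median of 73.7 kb against 17.5 kb.

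Members were counted over 25 lists of cell type, pathway and control genes, of which 10 had no gene with a member. Of 426 listed genes 413 were measured, and 27 of these (6.54%) held a member in the locus, where 3.46% of all coding loci did and 4.87% of those with a shared region. Radial glia genes had 3 of 24, intermediate progenitor genes 1 of 19, newborn projection neuron genes 0 of 18, upper layer genes 2 of 18 and deep layer genes 4 of 18. Interneuron genes (0 of 19), Cajal-Retzius genes (0 of 13), synaptic genes (0 of 18), immediate early genes (0 of 14), housekeeping genes (0 of 14), microglia (0 of 14), meninges (0 of 11), skeletal muscle and liver (0 of 15) and HOX genes (0 of 15) had none. At a background of 3.46% of loci, a list this small can have a count of 0 without differing from it. No conclusion is drawn from the lists with none. Many listed genes are short, and the median gene length was 8.43 kb in the newborn neuron list and 122 kb in the deep layer list.

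The deep layer genes with members were Foxp1, Nfia, Sox5 and Tle4. Foxp1, a forkhead factor, held 3 of 47 shared regions, and the best (chromosome 6, 99483427 to 99486683) had 6.97 and 5.98 in WT and 5.97 and 6.80 in cKO. Nfia, a nuclear factor I gene that is also in the oligodendrocyte and astrocyte list (1 of 15), held 2 of 44, and the best (chromosome 4, 97605887 to 97612664) had 8.42 and 7.02 in WT and 7.93 and 6.73 in cKO. Sox5, a SOXD factor, had 6.21 and 5.77 in WT and 6.61 and 5.83 in cKO. The upper layer members lay in Cux2 (6.04 and 5.86 in WT, 5.66 and 6.18 in cKO) and Limch1 (7.54 and 6.82 in WT, 5.63 and 6.48 in cKO). Of these genes with values given, Limch1 had both WT values above both cKO values, and in the others the genotypes overlapped. These folds chose the members, and how often folds separate over all shared regions was not counted. In the 5 kb on either side of the Limch1 region, 2968 and 3320 bases lay under peaks in WT and 3936 and 6212 in cKO. The log2 difference was 0.05 once each library was centred on its median.

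In the progenitor lists, the region over Hes5 (chromosome 4, 154956880 to 154963774), the one whose promoter is printed above, had 7.05 and 5.94 in WT and 6.79 and 6.68 in cKO. Notch2, a Notch receptor, had 7.35 and 6.10 in WT and 6.65 and 8.32 in cKO. The region 6.55 kb from Hopx, a homeodomain-only gene of outer radial glia, had 7.62 and 5.71 in WT and 6.89 and 7.29 in cKO. The member in the Insm1 locus (chromosome 2, 146214395 to 146221217) overlapped the neighbour Cfap61, whose span ended at 146215035. It stopped short of Insm1, which began at 146221997. Notch2 and Hes5 were the 2 of 20 genes of the Notch list with a member.

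Among signalling pathways, the Wnt list had 4 of 22, the transducers Tcf7l1 and Tcf7l2, the ligand Wnt7b and the feedback inhibitor Axin2. At Axin2 (chromosome 11, 108947521 to 108950435) the values were 9.16 and 6.68 in WT and 7.05 and 9.06 in cKO. The FGF list had 3 of 18, Flrt1, the ETS factor Etv5 (7.26 and 5.60 in WT, 6.46 and 6.81 in cKO) and the receptor Fgfr1 (8.61 and 5.68 in WT, 6.07 and 6.08 in cKO). At Axin2, Etv5 and Fgfr1 both cKO values lay between the 2 WT values. The BMP and TGF-beta list had 1 of 20, Ski, a corepressor of SMAD proteins that also partners PRDM16. It held 3 members of 11 shared regions, the best with 7.59 and 6.33 in WT and 7.60 and 6.64 in cKO.

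The remaining lists had 2 of 24 (axon guidance), 2 of 16 (voltage-gated channels), 2 of 22 (chromatin regulators), 1 of 19 (cell cycle), 1 of 15 (endothelium and pericytes) and 1 of 10 (erythroid). Dab1, the adaptor of reelin signalling, had 9.60 and 6.60 in WT and 7.99 and 7.21 in cKO. Cacna1c, an L-type calcium channel, held 3 members, the best with 9.17 and 7.02 in WT and 10.1 and 7.40 in cKO. The members in the loci of Chd4 and Mcm2 lay outside those genes, 2949 bp from Lpar5 and within Podxl2. Pecam1, an endothelial adhesion gene, had 6.72 and 6.92 in WT and 8.03 and 6.02 in cKO, and the region 7.11 kb from Tal1, a factor of blood and of some neurons, had values between 5.60 and 6.17 in the 4 lists.

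Among the genes given here whatever their values, Cux2 alone held a member. The best regions of the others named here ranked 1569 (Bcl11b, a deep layer factor), 2688 (Prdm16 itself), 3346 (Neurod2), 4088 (Pdzrn3), 6139 (Emx1), 16302 (Tbr1), 17098 (Pax6), 21675 (Eomes) and 36110 (Sox2). At Prdm16 the best region (chromosome 4, 154567176 to 154572494) had 5.78 and 5.08 in WT and 6.08 and 6.95 in cKO. Both cKO values lay above both WT values, which was not tested, and the region was below the threshold in WT replicate 2 alone. At Bcl11b the values were 6.55 and 5.35 in WT and 6.67 and 5.79 in cKO, with the same list below it. The locus of Sox2 held 1 shared region, of 275 bp.

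Members stood away from gene starts. Starts were given for the genes of 774 members and 44026 shared regions, and members on chromosome 18 (46) are not in these counts. A missing start of a further neighbouring gene was not seen, so some distances are too long in both sets. The centre lay within 1 kb of a coding start in 20 of 774 members (2.58%), compared with 11.9% of all shared regions with a start, and a start lay inside 4.39% of members against 8.02%. Members were longer than shared regions at large, with a median of 2814 bp against 1033 bp, so the comparison was repeated within length classes. Among regions of 2 kb to under 3 kb, 1.97% of members and 16.5% of all shared regions were within 1 kb of a start, and among those of 3 kb to under 5 kb, 2.30% and 9.47%. The median distance from the centre to a start was 39.8 kb for members and 34.6 kb for all.

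From rank 40000 upward the share near starts became smaller toward the top of the ranking. It was 12.5% for ranks below 40000, 14.6% from there up to 20000, 11.7% up to 10000, 7.78% up to 5000, 4.06% up to the members and 2.58% in the members. Members made up 0.369% of shared regions within 500 bp of a start, 2.68% of those from 5 to 20 kb away, 2.48% of those from 20 to 100 kb and 1.33% of those farther away, so the share did not go one way with distance. The median fold of all shared regions differed little between the first 2 of these distances, at 4.32 and 4.47 in WT replicate 1 and 4.22 and 4.43 in cKO replicate 1.

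**Figure D4:**
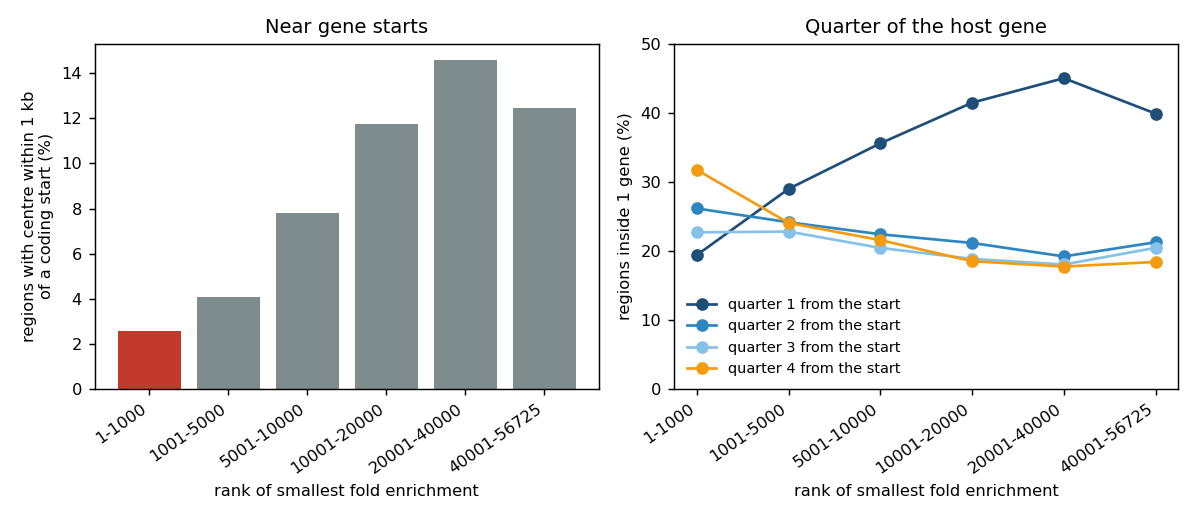
Left, share of shared regions with their centre within 1 kb of a coding start (y axis, %) by rank of the smallest fold enrichment (x axis); the members (red) have 2.58%. Right, share of regions overlapping 1 gene (y axis, %) with their centre in each 25% of its length, or beyond that edge, by the same ranks; the part nearest the start goes from 39.9% in the lowest class to 19.4% in members and the part nearest the end from 18.4% to 31.7%.

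Within genes, members lay further from the start. Along the gene, 520 members and 27106 shared regions that overlapped 1 gene of known strand were counted by their centre. Of these members 19.4% were in the 25% of the gene nearest its start and 31.7% in the 25% nearest its end. The shares of all shared regions were 40.5% and 19.1%. A centre beyond the edge of the gene was put in the 25% at that edge, and how many there were was not counted. In genes over 100 kb the shares were 18.5% and 33.7% for 303 members, against 28.3% and 23.8%. The share of members that touched a coding gene was 67.3%, with 63.1% for all shared regions. The annotation used here has no exons, so introns and exons were not told apart.

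Outside coding genes there were 327 members, at a median of 36220 bp from the nearest coding gene, compared with 47320 bp for all shared regions outside genes. Of these, 101 (30.9%) had their centre in the span of a lncRNA gene, against 21.7%. The 5 farthest members were 689 kb from Gramd3, 682 kb from Rwdd3, 553 kb from Zfp608, 466 kb from Tmem38b and 442 kb from Rps24. The first of these (chromosome 18, 55692159 to 55698827, 6669 bp) had 7.10 and 6.07 in WT and 7.28 and 7.58 in cKO, and the fifth (chromosome 14, 24938833 to 24940334) had 7.40 and 6.10 in WT and 7.24 and 7.69 in cKO. Both cKO values lay above both WT values at the first, and the genotypes overlapped at the fifth. The first and the third lay in the same gap on chromosome 18, between Zfp608 and Gramd3.

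Genes with a member inside also carried the mark at their own start more often than coding genes at large. Of 424 genes with a promoter window, 188 (44.3%) had at least 150 of its 300 bases under peaks in all 4 lists, compared with 35.7% of 10107 genes with a shared region inside and 22.2% of all 16437. No list had a peak over the window in 18.9%, 24.5% and 47.3%. Part of this was fixed by the choice, since a window inside a shared region is under peaks in all 4 lists. Such windows belonged to 29 genes for members and 3158 for shared regions, and they were not left out. Hosts also have peaks by definition, so no conclusion is drawn from these shares. The windows of these hosts, under peaks or not, were rich in CpG (median 20 per window for the hosts of members and for the hosts of any shared region), unlike the windows that lay in the members themselves. At least 10 CpG were held by 68.45% of windows for the hosts of members and 76.15% for the hosts of any shared region.

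The share of members varied between chromosomes. They made up 2.37% of the shared regions of chromosome 4 and 2.35% of chromosome 11, and 1.14% of chromosome 1 and 1.12% of chromosome 19. Of the 1000, 303 lay within 50 kb of another member and 128 within 10 kb. Between 20 (WT replicate 1) and 50 (cKO replicate 2) members shared their peak with another member, so neighbours are not always separate measurements.

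Whether the choice holds in a library it did not use was asked by choosing 1000 regions from 3 lists and reading them in the remaining one. All 1000 had a peak in the remaining list each time, where 88.4% to 98.2% of all candidate regions did. Their median fold was 7.08 and 5.61 in WT replicates 1 and 2 and 6.88 and 6.59 in cKO replicates 1 and 2, against 4.45, 3.83, 4.39 and 4.25 for all candidates with a peak. The candidates, which are the regions shared by the 3 lists used (57900 to 63831), were ranked by their fold in the remaining list. The share of chosen regions in the top 10% of candidates was 85.5% ± 0.866 (SD, n = 4 libraries, range 84.4% to 86.3%), and 36.7% to 41.7% were among the 1000 highest candidates. Chosen on the lists of 1 genotype alone and read in the other, 81.3% and 81.3% were in the top 10% of candidates in cKO replicates 1 and 2, and 89.4% and 85.7% in WT replicates 1 and 2.

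The peak over a member was wide in every list and widest in cKO. Its median width was 3461 and 3090 bp in WT replicates 1 and 2 and 3587 and 4132 bp in cKO replicates 1 and 2, compared with 1545, 1372, 1784 and 2042 bp over all shared regions. Both cKO peaks were wider than both WT peaks at 45.0% of members, and at 41.3% of all shared regions. Both were narrower at 5.4% of members and 5.1% of all. The shares of the members were near the background.

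The genotypes were compared on the bases under peaks in the 5 kb on either side of a region, with the region itself left out. The rule did not count these bases, but they are not independent of it. Each edge of a region is the end of a peak in some list, and the flanks can hold the rest of the same broad peaks. Regions with a mean under 500 flank bases were left out, which kept 804 members and 40262 regions in all. The other 196 members had little under peaks around them and were not tested. Over all 1000 members the flanks held a median of 1436 and 1062.5 bases in WT replicates 1 and 2 and 1697.5 and 2383 bases in cKO replicates 1 and 2. Those of the 804 members tested held a median of 2036 and 1564 bases in WT replicates 1 and 2 and 2300 and 3033 bases in cKO replicates 1 and 2, and those of all regions tested 1413, 1071, 1791 and 2246. Values were taken as log2(bases + 500) and centred on each library's median, because the cKO lists cover more, and a fold change on this scale understates that of thinly covered flanks.

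No region differed between the genotypes past the threshold. limma called 0 of 40262 regions and 0 of 804 members at an adjusted p under 0.05 (0.0% called, smallest adjusted p = 0.681). At an unadjusted limma p under 0.05, 24 members were higher and 35 lower in cKO, where 3.36% and 3.88% of all regions were. With no overlap between the genotypes, 111 members were higher (13.8% of those tested) and 209 lower (26.0%), compared with 16.0% and 23.2% of all regions. The median log2 difference of the members was −0.068 and that of all regions −0.030, and 43.3% of members and 47.9% of all regions were above 0. The counts of the members were near the background. With WT replicate 1 left out limma called 94 regions, 1 of them a member, and without WT replicate 2 it called 27, with 0 members. In these fits the lone WT library is assumed to vary like the cKO pair, whose spread alone enters the test. The median of the members was above 0 with flanks of 2 kb, with lists cut to equal covered length and without centring.

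**Figure D5:**
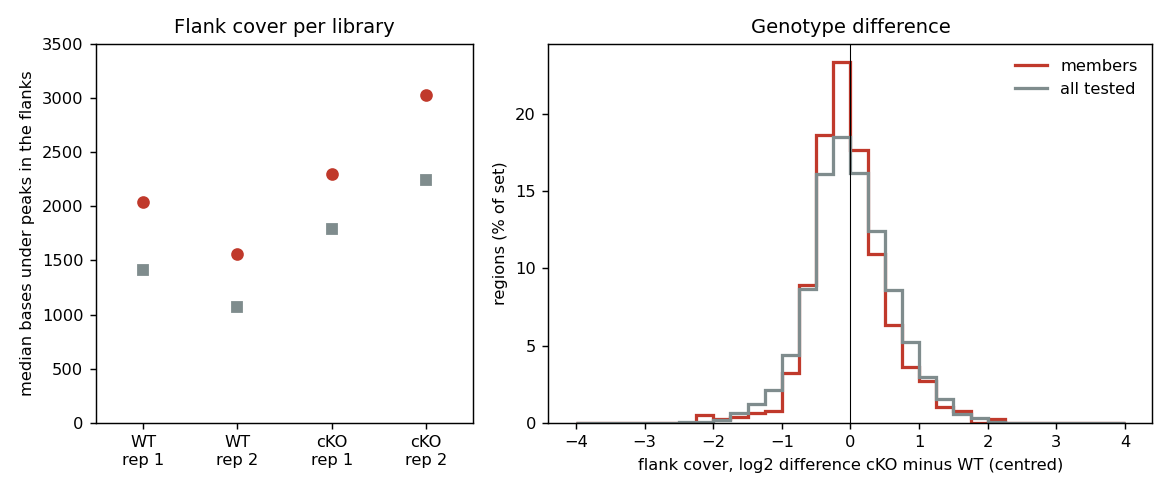
Left, median bases under peaks in the flanks (y axis) of 804 members (red circles) and 40262 regions (grey squares) in each library (x axis). Right, log2 difference of centred flank cover, cKO minus WT (x axis), as a share of the set (y axis); both sets peak just below 0, with medians of −0.068 and −0.030.

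The members with the smallest p among those without overlap did not pass over all regions. Around the region in Kremen1, a receptor for Dickkopf inhibitors of Wnt (chromosome 11, 5254581 to 5257433), 660 and 918 flank bases lay under peaks in WT and 6191 and 4487 in cKO, a log2 difference of 1.64 ± 0.40 (SE, 2 libraries per genotype, limma adjusted p = 0.681). Around the region in Msi2, an RNA-binding protein of neural progenitors, 542 and 349 bases in WT faced 2357 and 10000 in cKO, the last being the whole flank. Around the region in Setbp1 the values were 1579 and 1018 in WT and 4449 and 6389 in cKO. Dnah8 and Akap6 were the others in this direction.

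In the other direction the region in Rbm19 (chromosome 5, 120193505 to 120197054) had the smallest p of the 10, with 4372 and 3214 flank bases in WT and 1187 and 1994 in cKO, and a log2 difference of −1.59 ± 0.33 (SE, 2 libraries per genotype, limma adjusted p = 0.681). The region 79.9 kb from Gadd45g, a stress-response gene that marks newborn neurons and intermediate progenitors, had 2684 and 1414 bases in WT and 42 and 555 in cKO. Rasa3, Ulk4 and a region 18.6 kb from Cdk5rap3 completed the set. At Rasa3, a GTPase-activating protein for Ras, the values were 1910 and 1689 in WT and 0 and 623 in cKO.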

How the data were processed

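H3K4me ChIP-seq of embryonic cortex gave 4 ChIP libraries, 2 per genotype. The 4 input libraries were not used here. The submitters' processing notes name mm10, Bowtie2 (version 2.2.8), MACS2 (version 2.1.1), cutadapt and FastQC, and the sources used here give no options for calling. Broad peaks were deposited by the authors separately for each library, so replicates were not pooled. For every peak the deposited lists give the authors' score, fold enrichment (a ratio to background), and the p-value and q-value, both as −log10. The deposited fold was used to rank peaks within a list and to choose members. Depth is unknown, and depth bears on how many peaks are called and how wide they are.

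Intervals were handled in Python 3.11.15 (numpy 2.4.6, pandas 2.3.3) and the code was tested on simulated data. Gene spans came from RefSeq on GRCm38.p6, and a region that overlapped a span by any length was counted as in that gene. The table of starts used here lacks chromosome 18 and some genes. Regions whose host gene, or nearest gene if there was no host, is missing are not in counts on starts. A region beside another missing gene stayed in, as did the member next to Insm1, counted at 283 kb from a start. Flank cover was compared with limma 3.58.1 in R 4.3.3 (2 libraries against 2, Benjamini-Hochberg adjustment over all regions, no block). Overlapping flanks share bases. Alternatives changed the pseudocount, filter, flank, centring, peaks, block, libraries and the choice of members.

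The members and gene lists were chosen with earlier results of these data known. Regions and genes were named by rule: the 12 highest scores, 3 regions on each side of the threshold, the 10 loci with most members, up to 3 genes per list, 5 members per direction by flank difference, the 5 largest rank gaps, the 5 farthest from coding genes and 12 genes given always. Some genes that this rule takes in are not reported here.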

Additional observations from a re-analysis of the deposited data

Results flagged for a closer look

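Long regions were left out by the rule although many were as enriched as the members. Of 330 shared regions of 10 kb or more, 72 (21.8%) had a score at or above the lowest of the members. Of all shared regions under that length 1.76% are members, but this background is not matched for length. The share of members rose with length: 17 of 27493 regions under 1 kb were members and 274 of 6510 from 2 kb to under 3 kb. It was 281 of 4368 from 3 kb to under 5 kb and 181 of 1797 from 5 kb to under 10 kb. The share at 10 kb or more thus follows a rise already seen in shorter regions. The highest score at 10 kb or more was in the Tcf20 locus (chromosome 15, 82915543 to 82931273, 15731 bp). The fold enrichments there were 9.19 and 6.95 in WT replicates 1 and 2 and 8.38 and 7.37 in cKO replicates 1 and 2.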

How the results depend on the processing

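The call of 0 regions with different flank cover held in 11 of 14 alternatives; limma called 12 regions with the replicate block, none of them a member, and between 0 and 94 with 1 library left out (94 without WT replicate 1, of which 1 a member, and 27 without WT replicate 2; 0 without either cKO replicate); a lone library is then assumed to vary like the pair of the other genotype. The labels do not say whether replicate numbers pair the samples. In flank cover the deviations of same-numbered samples showed little correlation (−0.065). The median log2 difference of members (−0.068) was −0.024 with a pseudocount of 2000, −0.14 without the filter, 0.011 with flanks of 2 kb, −0.32 with stricter peaks, 0.13 with equal covered length and 0.47 without centring, where the median of all regions was 0.50; it ran from −0.12 to −0.065 with 1 library left out. The cause of these shifts was not tested. The share of members in coding genes (67.3%) lay between 65.1% and 68.6% in all 9 alternatives. The share in the top 10% of candidates by a list not used (85.5%) was 92.1% with 500 regions, 88.1% by rank and 84.4% across genotypes. By worst rank in place of smallest fold, 648 of 1000 regions overlapped a member. Unknown depth limits every measure of cover.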

Other observations

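The X chromosome, which the rule leaves out, had 529 shared regions in the same range of length, and 0 of them reached the lowest score of the members. The highest score there was 4.72. The labels used here do not give the sex of the embryos.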
